A study of Mus musculus with 4 samples.

Results

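The male tumours of this series were compared with and without floxed Yap1, as the library titled YSGm against the library titled SGm. The comparison holds 16301 cells, 8419 from SGm and 7882 from YSGm, out of 31150 cells kept in the 4 libraries of the series. Cells were chosen by library title, and within each library by at least 500 UMIs (unique molecular identifiers, 1 per captured transcript), at least 300 detected genes and at most 20% of UMIs from mitochondrial genes. Fresh mouse tumour tissue, labelled MB, was dissociated and captured on the 10x Genomics 3' system, with 1 library for each genotype and sex. Both genotypes carry fSMO-M2, a Cre-dependent and constitutively active Smoothened, together with the Cre transgene hGFAPcre, whose promoter is that of human GFAP. SG has the genotype fSMO-M2;hGFAPcre, and YSG the genotype fYap1;fSMO-M2;hGFAPcre, which adds floxed Yap1. The design text calls the YSG animals rescued and places the samples at end point. The question in the series title is how Yap1 function in immune evasion differs between the sexes.

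The hGFAPcre transgene is known to be active in the granule neuron lineage and in glia, and not in blood or vessel cells. The ages, the strain, the number of animals in each library, the zygosity and the exons flanked by loxP sites were not stated in the sources used here. With 1 library a side there is no replicate and no test: every interval below is a 95% interval for counting error only. Genotype cannot be told apart from animal, litter, capture and sequencing run.

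YAP1 is a transcriptional coactivator at the end of the Hippo kinase pathway. The kinases STK3, STK4, LATS1 and LATS2 hold it and its paralog TAZ, encoded by Wwtr1, in the cytoplasm, and in the nucleus the pair act through the DNA-binding TEAD factors. In the cerebellum, Hedgehog signalling through Smoothened drives the division of granule neuron progenitors, and its constant activity gives rise to the Hedgehog type of medulloblastoma. YAP1 is known to be induced by this signal and to promote progenitor growth.

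The libraries were of like depth. SGm held 73147047 UMIs in its kept cells with a median of 6197 per cell, and YSGm held 60884286 with a median of 5872.5. Median mitochondrial shares were 3.86% and 3.76%. The limit of 20% mitochondrial UMIs took out 85 SGm and 131 YSGm barcodes, the limit of 300 genes 6 and 9, and no deposited barcode had under 500 UMIs. The libraries had 11 kept barcodes in common. Cells of clusters named granule lineage made up 92.4% of SGm and 91.4% of YSGm. The name went to clusters that no other class claimed. At least 3 granule markers, such as Atoh1, Barhl1 and Neurod1, had to be detected in over 10% of their cells. Enrichment of these markers over other clusters was not required. In clusters 0 and 3, described below, their mean log2 ratio to all other cells was −0.87 and −0.77. The defining genes of that lineage were present in each library, with all 12 progenitor markers above 0 UMIs.

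Yap1 itself, on chromosome 9 (7931999 to 8004596, minus strand, mm10), had 266 UMIs in SGm and 10 in YSGm. That is 3.64 against 0.164 CPM (the UMIs of a gene per 1000000 UMIs of its library), a level 22.1-fold lower in YSGm with a counting interval of 11.9 to 46.7. The 266 UMIs of SGm came from 238 cells in 17 clusters. Astroglia-like cells, 190 in SGm and 135 in YSGm, had 13 and 3 Yap1 UMIs. Endothelial-like and fibroblast-like cells had 13 and 1, but numbered only 23 and 4, too few to compare. A 3' tag can lie outside the deleted exons, so the Yap1 counts over all kept cells follow the genotype labels without measuring the deletion.

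Levels over all kept cells were compared as the log2 ratio of YSGm over SGm after adding 1 CPM to each side, for 10180 genes at 5 CPM or more in at least 1 male library. Of these, 159 genes (1.56%) were at least 2-fold higher in YSGm and 241 (2.37%) at least 2-fold lower, and the median over all 10180 genes was −0.01. At a log2 ratio of 0.5 or more the numbers were 710 higher (6.97%) and 679 lower (6.67%). Within the granule lineage, 164 of 10102 genes (1.62%) were at least 2-fold higher and 235 (2.33%) at least 2-fold lower. The lower genes reached further: 41 of the 241 lay at −2 or below and 6 at −4 or below, whereas 14 of the 159 lay at 2 or above and 1, Mndal, at 4 or above. In the female libraries, 113 of the 159 genes were also at least 2-fold higher in YSG and 4 at least 2-fold lower. The corresponding numbers for the 241 lower genes were 160 lower and 5 higher. Over all 10379 genes measured in females, 3.11% were 2-fold higher and 2.45% 2-fold lower in YSG.

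**Figure D1:**
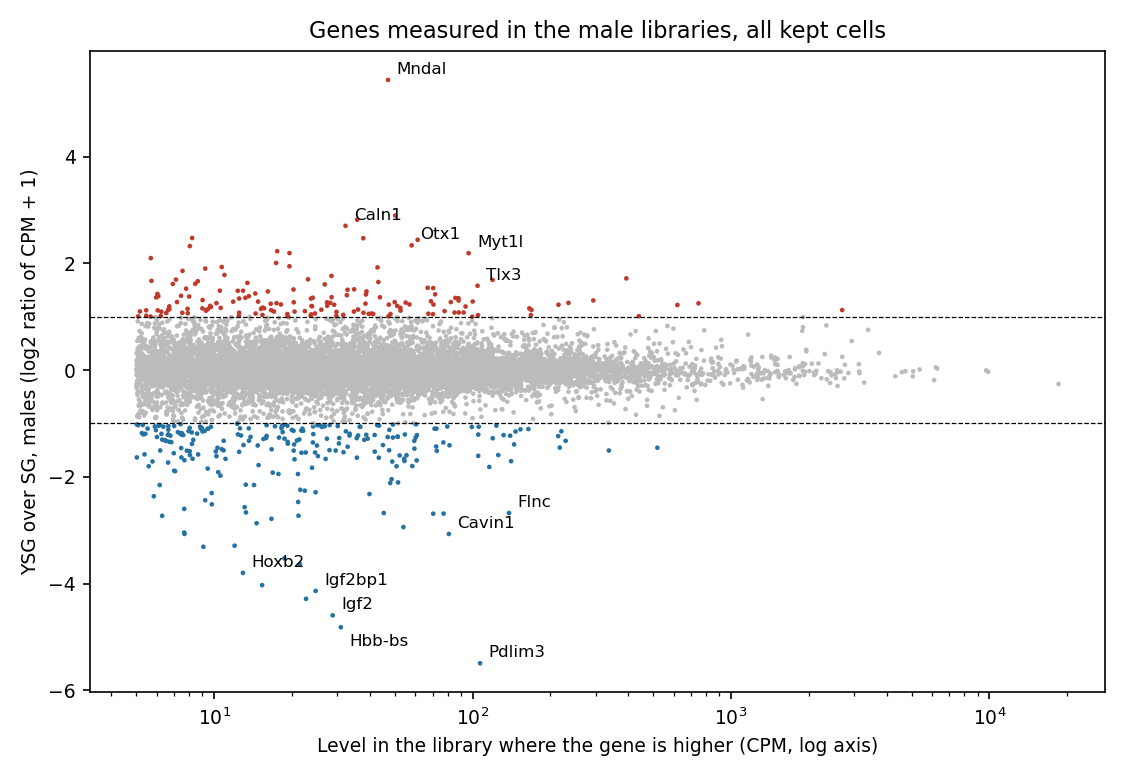
Each point is 1 of 10180 genes; the horizontal axis is the CPM of the male library where the gene is higher (log axis) and the vertical axis is the YSG over SG log2 ratio, with dashed lines at 1 and −1. Red points mark the 159 genes past 2-fold higher in YSG and blue points the 241 past 2-fold lower; Mndal stands above the rest at 5.44 and Pdlim3 below them at −5.49.

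The promoter sequences of 4 genes that were lower in YSGm are shown because the first 3 belong to the Hippo pathway or its targets and Pdlim3 had the lowest ratio. They are the 250 bases before the gene start that RefSeq's promoter table for GRCm38.p6 uses, on the gene's own strand. The GENCODE M21 gene starts further upstream in 2 of them, so the last 26 bases of the Pdlim3 window, with 1 of its marks, and all 250 of the Wwc2 window lie inside the GENCODE gene. The positions are chr3:145649986-145650235 (minus) for Ccn1, chr3:57575911-57576160 (minus) for Wwtr1, chr8:47990545-47990794 (minus) for Wwc2 and chr8:45885237-45885486 (plus) for Pdlim3. Capitals mark the letters GGAATG or their complement CATTCC, the core that TEAD factors are known to bind.
Ccn1: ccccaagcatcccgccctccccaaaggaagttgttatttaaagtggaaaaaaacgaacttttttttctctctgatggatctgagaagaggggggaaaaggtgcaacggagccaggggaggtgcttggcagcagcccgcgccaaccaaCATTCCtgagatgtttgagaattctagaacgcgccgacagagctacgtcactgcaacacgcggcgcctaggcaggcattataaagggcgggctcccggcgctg
Wwtr1: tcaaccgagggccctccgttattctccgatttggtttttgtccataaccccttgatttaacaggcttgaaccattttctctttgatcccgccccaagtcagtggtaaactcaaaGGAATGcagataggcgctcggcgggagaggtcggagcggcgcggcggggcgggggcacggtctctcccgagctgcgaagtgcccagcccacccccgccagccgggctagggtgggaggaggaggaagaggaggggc
Wwc2: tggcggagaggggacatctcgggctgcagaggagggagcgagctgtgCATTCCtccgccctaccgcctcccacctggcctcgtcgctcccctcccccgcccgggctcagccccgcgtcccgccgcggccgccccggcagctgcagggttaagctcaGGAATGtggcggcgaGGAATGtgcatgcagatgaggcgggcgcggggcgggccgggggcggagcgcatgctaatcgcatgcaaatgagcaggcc
Pdlim3: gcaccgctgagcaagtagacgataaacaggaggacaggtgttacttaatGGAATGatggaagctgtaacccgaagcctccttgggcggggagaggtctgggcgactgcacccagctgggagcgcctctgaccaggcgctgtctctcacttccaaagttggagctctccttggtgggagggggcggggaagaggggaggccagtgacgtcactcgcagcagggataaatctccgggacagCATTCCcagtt
These 4 were picked after their values were seen, and Wwtr1 has another window in the table. Amotl1, Myof and Rbms3, also Hippo or target genes at least 2-fold lower, are not shown. Matches in all 4 windows therefore do not describe the lower genes as a set. The letters occurred 1 time in Ccn1, 1 time in Wwtr1, 3 times in Wwc2 and 2 times in Pdlim3. They are common: of 32851 windows of 300 bases, which run 50 bases past each start, 14.7% held at least 1 match on either strand. Among measured genes with a window, matched by symbol, 13.3% of 8003 did, against 19.4% of the 170 matched lower genes and 16.3% of the 98 matched higher genes. A match describes letters and does not show binding.

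Among Hippo pathway genes, 3 of 18 measured (16.7%) were at least 2-fold lower in YSGm and 0 were higher, with a median of −0.15. Over all measured genes 2.37% were 2-fold lower and 1.56% higher, the shares to set beside each list count below. Wwtr1, the gene of TAZ, was at 19.3 CPM in SGm and 6.80 in YSGm (log2 ratio −1.38), and at 26.4 and 9.24 CPM in SG and YSG females. Wwc2, which encodes a scaffold that activates LATS kinases, was at 27.3 and 10.6 CPM in males (−1.29) and at 30.5 and 9.90 CPM in females. Amotl1, the gene of an angiomotin that binds YAP1, was at 42.7 and 20.4 CPM in males (−1.03) and at 52.6 and 29.9 CPM in females. In each of these genes both SG libraries lay above both YSG libraries.

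The kinases and the DNA-binding partners differed less. Lats2, a kinase that is itself a known YAP target, had a ratio of −0.63, and its sister kinase Lats1 −0.01. The upstream kinase genes Stk3 and Stk4 had −0.21 and −0.09, their adaptor Sav1 had −0.25, and Nf2, the gene of the upstream tumour suppressor merlin, had −0.22. Tead1, the gene of 1 of the TEAD factors, was at 221 and 220 CPM, Tead2 had −0.39, and Tead3 and Tead4 were under 5 CPM in both male libraries. Amotl2, another angiomotin, had 0.40. The lower Wwtr1 level was not even across tumour cells: within 6 granule lineage clusters that each held at least 80 cells of both male libraries, its ratios were 0.65, 0.00, −0.77, −1.45, −0.09 and −1.11.

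Canonical YAP and TAZ targets were mostly lower. Of 18 measured, 15 had a ratio below 0 and 3 above it, and the median was −0.30. At least 2-fold lower were 4 (22.2%) and at least 2-fold higher was 1 (5.56%), beside 2.37% and 1.56% of all measured genes. Myof, a membrane repair gene, was at 10.2 CPM in SGm and 2.66 in YSGm (−1.61), Ccn1, a secreted matricellular protein gene, at 8.67 and 2.23 CPM (−1.58), and Rbms3, an RNA-binding protein gene, at 12.6 and 5.37 CPM (−1.09). Amotl1, above, was the fourth. Ccn1 UMIs were unevenly placed: 98 of the 634 in SGm lay in astroglia-like cells and 66 in endothelial-like or fibroblast-like cells, against 11 and 3 of 136 in YSGm, and within granule lineage cells the ratio was −1.45. Ccn2, often used as a readout of YAP activity, was too scarce to compare, with 17 UMIs in SGm and 5 in YSGm. Foxf2, a forkhead factor gene that some lists count as a target, went the other way, from 3.50 CPM in SGm to 19.6 in YSGm (2.19), and in females from 3.70 to 12.8 CPM. Its ratio lay between 1.83 and 2.93 in each of the 6 clusters.

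The 15 genes with the highest ratios among those at 20 CPM or more included Mndal, Trf, Caln1, Mid1, Hist1h2ap, Otx1, Myt1l, Kcnj6, Hspa1b, Syndig1l, Rem2, Gfap, Tlx3 and Rpgrip1. In females 10 of the 15 were also at least 2-fold higher in YSG, and Mid1 and Hist1h2ap were lower there.

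Mndal, an interferon-inducible nuclear gene of the p200 family on chromosome 1 (173849126 to 173942491, minus strand), stood apart. It had 8 UMIs in SGm and 2866 in YSGm, or 0.109 against 47.1 CPM, a fold of 430 (218 to 998). The female libraries had 0.0346 CPM in SG and 92.7 CPM in YSG. In YSGm its UMIs came from 1977 cells in 24 clusters. It had 38 UMIs in astroglia-like, 7 in oligodendrocyte-like and 15 in oligodendrocyte precursor-like cells, with 0 in each of these classes in SGm. Its log2 ratio ran from 5.37 to 6.59 over the 6 shared clusters. The annotated Mndal and Ifi203 genes overlap on the same strand and p200 genes resemble each other, so the assignment of UMIs between them is uncertain. Ifi203 itself was at 0.178 and 3.15 CPM in SGm and YSGm, and the DNA sensor gene Aim2 of the same family at 0.848 and 4.06 CPM, both under the 5 CPM floor. No other p200 gene of the 12 found in the files reached that floor. Of 45 interferon response genes listed, only 13 were measured, with a median of −0.07. Among these, 1 (Ifitm3, 2.49 and 6.64 CPM) was 2-fold higher and 0 were 2-fold lower, beside 1.56% and 2.37% of all measured genes. Such small counts say little about the list.

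Several homeobox and neuronal transcription factor genes were higher too. Otx1, a homeobox gene of the developing hindbrain and forebrain, was at 10.7 CPM in SGm and 58.1 in YSGm (2.34), and at 10.2 and 72.2 CPM in females. Tlx3, a homeobox gene of glutamatergic neurons, was at 34.3 and 105 CPM in males (1.58) and at 35.9 and 115 CPM in females. Myt1l, which represses non-neuronal genes in neurons, was at 20.4 and 96.5 CPM in males (2.19) and at 14.9 and 110 CPM in females. For these 3 genes the 2 SG libraries lay close together and well below the 2 YSG libraries.

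Ion channel and calcium signalling genes were also among the higher ones. Caln1, the gene of a calmodulin-like protein, was at 4.10 CPM in SGm and 32.2 in YSGm (2.70). Kcnj6, a G-protein-gated potassium channel gene, was at 10.6 and 42.9 CPM (1.92). Rem2, a small GTPase gene that inhibits calcium channels, was at 13.1 and 43.2 CPM (1.65), and Syndig1l, a synapse differentiation gene, at 6.40 and 23.1 CPM (1.70). Measured calcium channel, sodium channel and calcium kinase genes numbered 27, with a median of 0.39. Of these, 6 (22.2%) including Caln1 were 2-fold higher and 0 were 2-fold lower, beside 1.56% and 2.37% of all measured genes. Camk4, a nuclear calcium-dependent kinase gene, had 2.23 and the calcium channel gene Cacna1e 1.95. Of 19 potassium channel genes, 4 (21.1%) were higher and 2 (10.5%) lower, with a median of 0.55. The lower ones were Kcnk3 (−1.41), a background channel gene, and Kcnj10 (−1.15), whose product is typical of glia. Glutamate and GABA receptor genes had 2 of 14 higher and 1 lower, with a median of 0.26.

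Trf and Gfap are glial genes in the normal brain. Trf, which encodes transferrin, was at 4.21 CPM in SGm and 35.7 in YSGm (2.82), but 10 cells held 42.0% of its 2176 UMIs in YSGm and 1 of them held 525. Astroglia-like cells had 13 Trf UMIs in SGm and 825 in YSGm, and oligodendrocyte-like cells 5 and 217. Within granule lineage cells the ratio was 2.26, and in females the level was 4.08 and 28.1 CPM. Gfap, the intermediate filament gene of astrocytes, was at 8.12 and 26.8 CPM (1.61), of which 110 of 594 UMIs in SGm and 206 of 1630 in YSGm lay in astroglia-like cells, and its ratio within granule lineage cells was 1.66. In females it was at 10.8 and 18.2 CPM.

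Hspa1b, an inducible heat shock gene, was at 7.66 and 28.4 CPM (1.77), and Hspa1a, Hspb1 and Hsph1, the other heat shock genes of the stress list past 2-fold, had 1.51, 1.26 and 1.25. Hspa1a and Hspa1b are near-identical copies and are uncertain as a pair. Clusters 6, 7 and 16, led by stress genes, held 895 SGm cells (10.6%) and 1643 YSGm cells (20.8%). Without these clusters the ratios of Hspb1 and Hspa1a were 0.65 and 1.21, and the median of 31 measured immediate early and stress genes went from 0.20 to −0.02. On the same list, 2 genes were at least 2-fold lower: Arc, an immediate early gene of neurons, was at 51.5 and 11.2 CPM (−2.10) and Fosl1, an AP-1 subunit gene, at 72.7 and 24.9 CPM (−1.51). In females the stress clusters held 547 SG cells (7.14%) and 646 YSG cells (8.98%). Of these, clusters 6 and 16 held 200 and 115 SG cells against 152 and 68 YSG cells. Of 31 list genes measured in females, 1 was at least 2-fold higher in YSG and 4 lower, with a median of −0.10. The part of tissue dissociation in the stress gene values was not tested.

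Mid1 and Hist1h2ap were opposite in the sexes. Mid1, a ubiquitin ligase gene on chromosome X, was at 5.99 CPM in SGm, 37.8 in YSGm, 35.7 in SG females and 3.62 in YSG females. Hist1h2ap, a histone H2A gene with near-identical copies, was at 10.5, 61.3, 61.0 and 14.7 CPM in the same order. In both genes the level of YSG males was close to that of SG females. Rpgrip1, a photoreceptor cilium gene, was at 23.6 and 70.4 CPM in males (1.54) and at 23.4 and 30.1 CPM in females.

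**Figure D2:**
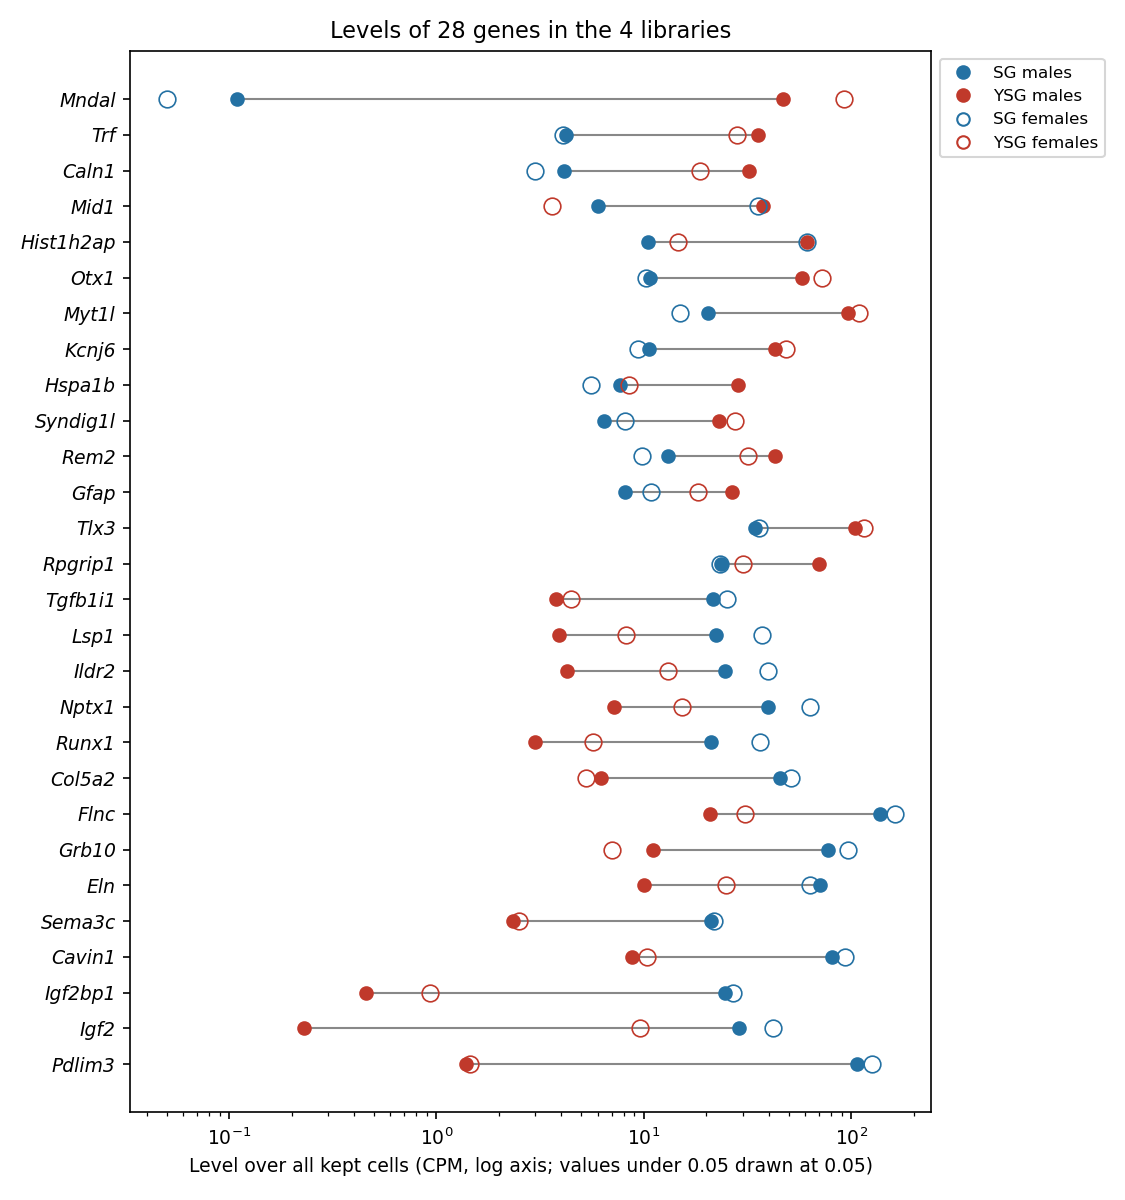
CPM over all kept cells (log axis) for 28 genes, 14 of the 15 with the highest and 14 of the 15 with the lowest male ratio among genes at 20 CPM or more; filled blue and red points are SG and YSG males joined by a line, and open circles are the females, with values under 0.05 drawn at 0.05. Mndal and Igf2 span the longest lines, and Mid1 and Hist1h2ap are the 2 genes whose female circles are in the reverse order.

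The 15 genes with the lowest ratios included Pdlim3, Igf2, Igf2bp1, Cavin1, Sema3c, Eln, Grb10, Flnc, Col5a2, Runx1, Nptx1, Ildr2, Lsp1 and Tgfb1i1, and in females each of the 15 was at least 2-fold lower in YSG too. Pdlim3, which encodes a PDZ and LIM domain protein of the actin cytoskeleton, lies on chromosome 8 (45885461 to 45919548, plus strand). It was at 107 CPM in SGm and 1.40 in YSGm, a level 76.6-fold lower (61.9 to 96.0), and at 126 and 1.46 CPM in females. In astroglia-like cells it had 168 UMIs in SGm and 3 in YSGm, and in oligodendrocyte-like cells 39 and 1. Those SGm levels were 92.6 and 73.6 CPM of each class, beside 107 CPM of all cells, and the part of free RNA in them was not tested.

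Caveolar, actin and muscle-type genes, a list that includes Pdlim3, had a median of −0.48. Of 31 measured, 9 (29.0%) were at least 2-fold lower and 0 higher, beside 2.37% and 1.56% of all measured genes. Cavin1, the coat protein gene of caveolae, was at 80.9 and 8.75 CPM (−3.07). Flnc, the muscle filamin gene, was at 138 and 20.8 CPM (−2.68) and Des, the desmin gene, at 16.7 and 1.56 CPM (−2.79). Tgfb1i1, a focal adhesion adaptor gene, was at 21.5 and 3.76 CPM (−2.24). The Pdlim3 relative Pdlim7 had −0.02.

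Oncofetal and insulin-like growth factor genes included 7 of 20 (35%) at least 2-fold lower and 1 (5%) higher, beside 2.37% and 1.56% of all measured genes. Igf2, an imprinted fetal growth factor gene, had 2102 UMIs in SGm and 14 in YSGm (28.7 and 0.230 CPM), a level 125-fold lower (74.3 to 229). In females it was at 41.9 and 9.64 CPM. Fibroblast-like and endothelial-like cells held 283 of the SGm Igf2 UMIs, and within granule lineage cells the ratio was −4.42 against −4.60 over all cells. Igf2bp1, the gene of a fetal mRNA-binding protein, was at 24.7 and 0.460 CPM (−4.14) and its relative Igf2bp3 at 38.8 and 16.2 CPM (−1.21). Hmga2, a fetal chromatin gene, had −2.87 and Grb10, an imprinted growth inhibitor gene, −2.69. Igf2r, whose product clears IGF2, was the higher member, at 6.73 and 17.4 CPM (1.25), and it was at 8.70 and 23 CPM in females.

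Mndal, Igf2 and Igf2bp1 were among the few genes that reached 20 CPM in 1 male library and stayed under 1 CPM in the other. Runx1, a transcription factor gene of blood stem cells that tumours also use, was at 21.1 and 2.99 CPM (−2.47). Leukocyte-like cells had 1 Runx1 UMI in SGm and 18 in YSGm, and within granule lineage cells its ratio was −2.67. Sema3c, a secreted guidance cue gene, was at 21.2 and 2.35 CPM (−2.73). The neuronal pentraxin gene Nptx1 had −2.32, the membrane receptor gene Ildr2 −2.29 and the leukocyte-type actin regulator gene Lsp1 −2.26.

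Matrix genes had the lowest median of the lists with at least 5 measured members. Of 25 extracellular matrix genes, 12 (48%) were at least 2-fold lower, 0 were 2-fold higher, and the median was −0.87. Over all measured genes the shares were 2.37% and 1.56%. Col3a1, a fibrillar collagen gene, was at 12 and 0.328 CPM (−3.29), but 271 of its 877 SGm UMIs lay in endothelial-like or fibroblast-like cells. Such cells numbered 23 in SGm and 4 in YSGm. Col5a2 was at 45.3 and 6.24 CPM (−2.68), and the elastin gene Eln, which is not on that list, at 70.4 and 10.1 CPM (−2.69) with 18 of 5151 UMIs in those cells. The list median within granule lineage cells was −0.82. Lamb1, a laminin chain gene, was the highest member at 5.44 and 11.3 CPM (0.93).

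Stem and glial progenitor genes had 5 of 23 (21.7%) lower and 1, Gfap, higher, beside 2.37% and 1.56% of all measured genes. Their median was −0.56 over all cells and −0.38 in the granule lineage. Fabp7, a radial glia and astrocyte gene, was at 141 and 42.5 CPM (−1.71). Astroglia-like cells held 4876 of its 10306 UMIs in SGm and 1082 of 2586 in YSGm, and made up 2.26% of SGm cells and 1.71% of YSGm cells. Tnc, a matrix glycoprotein gene, had −2.30 and Sox2, a stem cell factor gene, −1.21. Integrin and adhesion genes had 3 of 21 lower and 0 higher: Tns1 (−1.83), Itga6 (−1.36) and Cd44 (−1.19), which encode a focal adhesion tensin, a laminin receptor and the hyaluronan receptor.

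**Figure D3:**
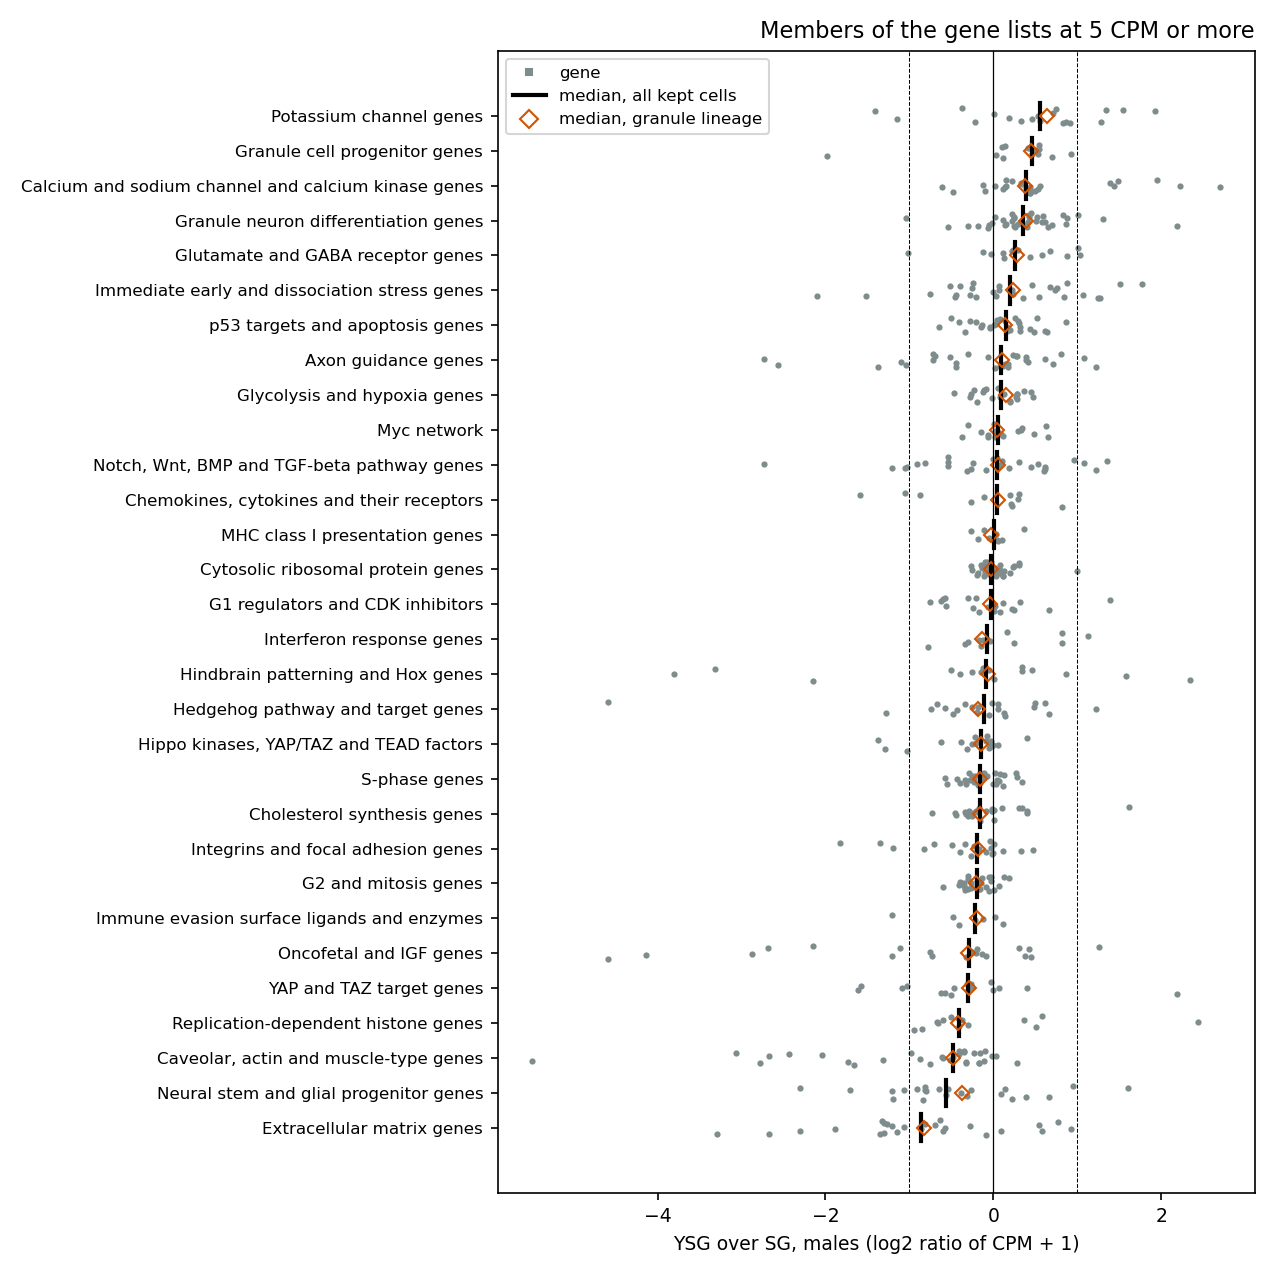
Each grey point is 1 list member at 5 CPM or more in a male library, on the YSG over SG log2 scale, with black bars for the list median over all kept cells and open orange diamonds for the median within the granule lineage. Extracellular matrix genes lie lowest at a median of −0.87 and potassium channel genes highest at 0.55, while ribosomal and MHC class I genes sit near 0.

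Hedgehog pathway genes were mixed. Of 22 measured, 1 (4.55%) was at least 2-fold higher, 2 (9.09%) were lower, and the median was −0.12. Over all measured genes the shares were 1.56% and 2.37%. Smo, whose UMIs can include transgene transcripts, was at 52.7 and 57.7 CPM, and its inhibitor Sufu at 23.4 and 36.3 CPM (0.61). The receptor gene Ptch1, which is also a target, had −0.48, and the target and decoy receptor gene Hhip −0.43. Of the Gli factor genes, Gli1 had −0.75, Gli2 0.06 and Gli3 −1.27. The cyclin genes went in opposite ways, Ccnd1 at −0.57 and Ccnd2 at 0.67, and Mycn had 0.48. Sfrp1, a secreted Wnt inhibitor gene induced by Hedgehog signalling, was at 266 and 620 CPM (1.22), while the target Igf2 was the lowest member. Several of these ratios were smaller or turned within the 6 shared clusters, where Gli1 had −0.13, Ptch1 0.02, Ccnd1 0.15 and Hhip 0.27, and the list median was 0.07.

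Granule progenitor genes had 0 of 15 at least 2-fold higher and 1 lower, with a median of 0.46. Atoh1, the factor that defines the lineage, was at 27.7 and 37.7 CPM (0.43), Rassf4 had 0.93, and Eya1, a transcriptional cofactor and phosphatase gene, was the lower member at 10.6 and 1.94 CPM (−1.98). Differentiation genes had 3 of 37 higher (Myt1l, Stmn4 at 1.30 and Gap43 at 1.01) and 1 lower (Plxna2, −1.04), with a median of 0.35. Neurod1, the differentiation factor, was at 160 and 262 CPM (0.70). In the 6 shared clusters the medians of these lists were 0.21 and 0.16.

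Cell cycle genes lay near the middle. Of 30 S-phase genes and 30 mitosis genes, 0 passed 2-fold either way, with medians of −0.15 and −0.20, and the mitosis median was 0.19 in the 6 shared clusters. Among 20 G1 regulators, 1 was higher: Cdkn2a, whose products p16 and p19 restrain division, at 2.21 and 7.44 CPM (1.39) and at 2.11 and 7.01 CPM in females. Its ratio was above 0.5 in each shared cluster. Of 17 Myc network genes and 30 p53 and apoptosis genes, 0 passed 2-fold. The same held for 23 glycolysis genes, and of 25 cholesterol synthesis genes 1 was 2-fold higher and 0 were lower. Since 1.56% of all measured genes were 2-fold higher and 2.37% lower, counts of 0 in lists of this size say little.

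Hox genes split the male libraries. Hoxb2 had 945 UMIs in SGm and 0 in YSGm, so its level was at least 262-fold higher in SGm, set against 3 UMIs in YSGm. Hoxb3 had 664 UMIs and 1 UMI, a ratio of 553 (98.9 to 21862). Hoxb4, which lies on chromosome 11 like Hoxb2 and Hoxb3, and Hoxa2 on chromosome 6, both below 5 CPM in males, had 224 and 230 UMIs in SGm and 0 in YSGm. Meis2, a Hox cofactor gene, was at 13.2 and 2.22 CPM (−2.15). SGm Hoxb2 UMIs were spread over 22 clusters, with 18.8% of them in cluster 3, which held 28.6% of all SGm UMIs. The female libraries did not share this order: Hoxb2 was at 12.7 CPM in SG and 28.9 in YSG, and Hoxb3 at 7.11 and 25.5 CPM. Hindbrain patterning genes as a list had 2 of 16 higher (Otx1 and Tlx3) and 3 lower (Hoxb2, Hoxb3 and Meis2).

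Guidance and signalling genes went both ways. Of 30 axon guidance genes, 5 (16.7%) were lower and 2 (6.67%) higher, beside 2.37% and 1.56% of all measured genes. Robo3, a guidance receptor gene needed for axons to cross the midline, was at 13.1 and 1.38 CPM (−2.57) in males and at 16.1 and 11.6 CPM in females. Nrp1, a semaphorin coreceptor gene, had −1.37, whereas the semaphorin gene Sema3e had 1.23 and the ephrin receptor gene Ephb2 1.08. Of 29 Notch, Wnt, BMP and TGF-beta pathway genes, 4 were lower and 3 higher. Inhba, the gene of an activin subunit, had 460 UMIs in SGm and 6 in YSGm (−2.73) and the ligand gene Wnt5a had −1.20. The ligand gene Wnt4 was at 33.0 and 85.8 CPM (1.35).

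Genes tied to immune recognition made short lists at 5 CPM or more. Of 10 measured MHC class I presentation genes 0 passed 2-fold, and the median was 0.01. Over all measured genes 1.56% were 2-fold higher and 2.37% lower, so a count of 0 of 10 says little. Of 7 immune evasion ligands and enzymes, 1 was lower: Lgals1, the galectin-1 gene, at 105 and 45.0 CPM (−1.21), and at 147 and 56.0 CPM in females, though its ratio in the shared clusters was −0.33. Of 12 chemokine, cytokine and receptor genes, 2 were lower and 0 higher. Gas6, the gene of a ligand that engages phagocyte receptors, was at 8.05 and 2.0 CPM (−1.59), and Cxcl14 at 18.3 and 8.33 CPM (−1.05). Ccl5, a T cell attractant gene below the floor of 5 CPM, had 6 UMIs in SGm and 211 in YSGm, of which 94.8% lay in the dendritic-like cluster.

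Granule lineage cells of the male libraries fell largely into different clusters. Cluster 0, led by Hmga2 and Col5a2, held 1999 SGm and 63 YSGm cells, and cluster 3, led by Runx1 and Pdlim3, held 1305 and 28. Cluster 1, led by Wnt4 and Mndal, held 78 and 1841, and cluster 4, with Galr1 among its leading genes, 70 and 1432. Clusters 2, 6, 7, 15, 16 and 17 held at least 80 cells of each library. They were led by cell cycle genes (2 and 17), stress genes (6, 7 and 16) or Creb5 and Vgf (15), and had 1291 SGm and 3500 YSGm cells together. Genes that define a cluster were used to make it, so these counts are a description.

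**Figure D4:**
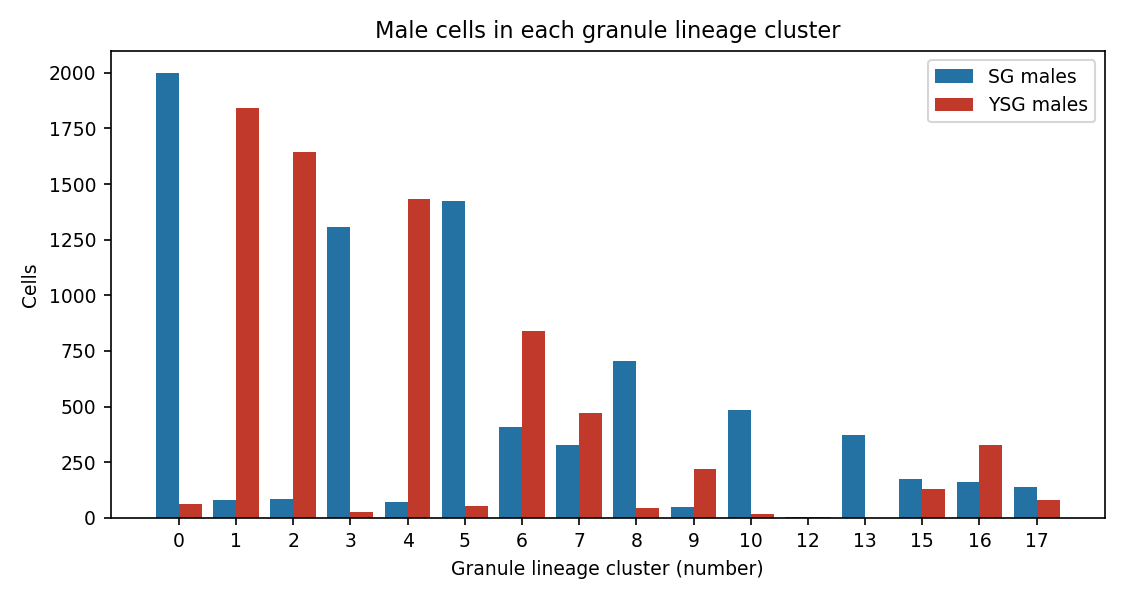
Cells of the SG (blue) and YSG (red) male libraries in each granule lineage cluster, counted on the vertical axis. Clusters 0, 3 and 5 are nearly all SG and clusters 1, 2 and 4 nearly all YSG, while 6, 7, 15, 16 and 17 hold both.

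Ratios within the 6 shared clusters, with CPM averaged over clusters at equal weight, called fewer genes. Of 10220 genes measured there, 131 (1.28%) were at least 2-fold higher and 145 (1.42%) at least 2-fold lower in YSGm. All 159 higher genes of the comparison over all cells kept their sign there, as did 236 of the 241 lower genes. The cells of the 6 clusters are part of the cells that picked these genes. Agreement is therefore partly built in, here and for the named genes. Of the named genes, 13 of 15 higher and 15 of 15 lower were still past 2-fold, and Hspa1b (0.68) was among the exceptions. Pdlim3 ranged from −4.61 to −2.89 over the clusters and Igf2 from −4.98 to −3.13. Cavin1 was at −0.52 in cluster 2 and between −2.66 and −2.14 in the others. Ildr2 was higher in YSGm in cluster 2 (2.43) and cluster 7 (0.98), the former a cluster where SGm had 84 cells. The matrix list median was −0.40 and the caveolar list median −0.16.

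**Figure D5:**
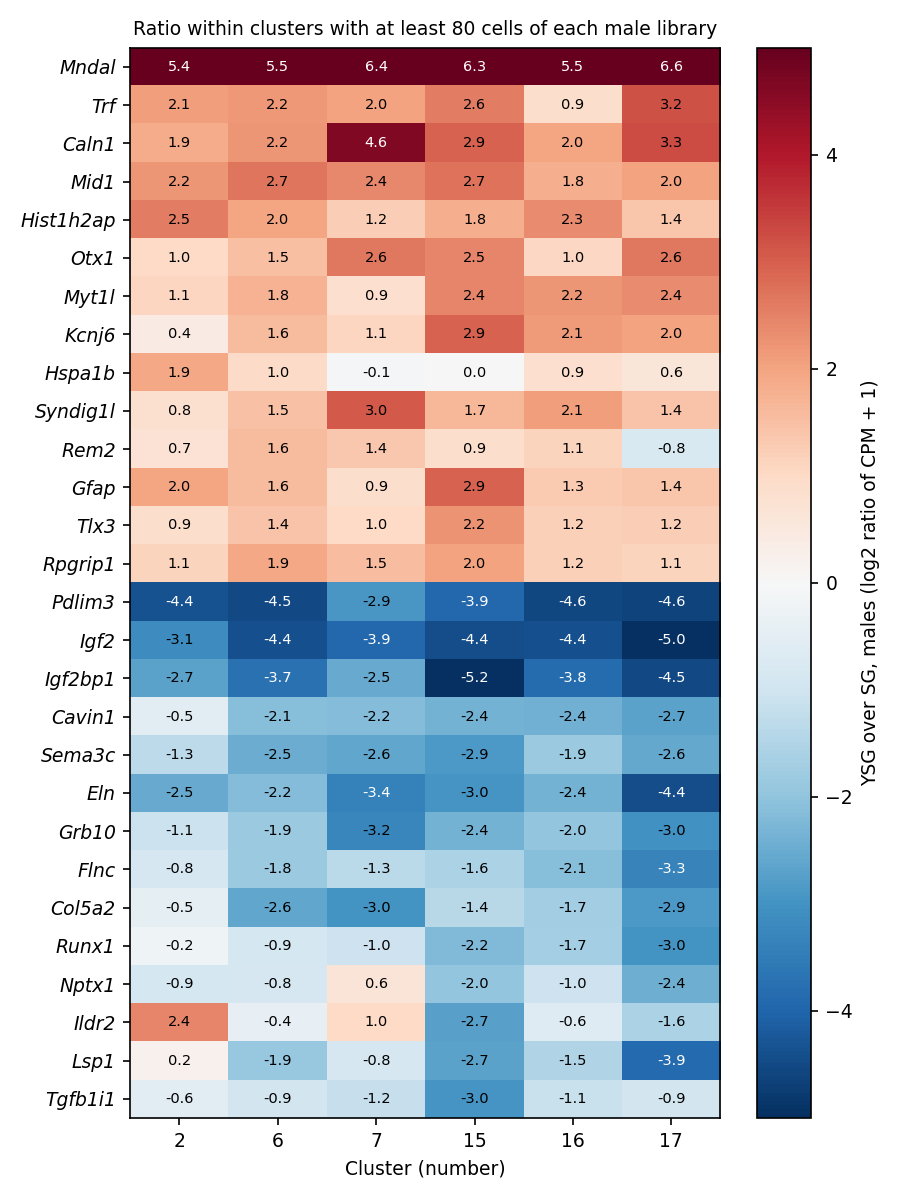
Colour and printed value give the YSG over SG log2 ratio of the same 28 genes (rows) in each of the 6 granule lineage clusters with at least 80 cells of each male library (columns). Mndal is above 5 and Pdlim3 below −2.5 in every column, while Hspa1b, Rem2, Nptx1, Ildr2 and Lsp1 change sign in at least 1.

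Cells outside the granule lineage were few. Leukocyte-like cells numbered 16 in SGm (0.190%) and 30 in YSGm (0.381%), a fold of 2.0 (1.06 to 3.93). By cluster, microglia-like cells numbered 14 and 11, dendritic-like cells 2 and 14, and neutrophil-like cells 0 and 5, where 0 of 8419 cells allows a share of up to 0.0356%. The larger YSGm number lay in the dendritic-like and neutrophil-like clusters. Summed dendritic markers, which include Cd74 and H2-Aa of MHC class II presentation, had 28 UMIs in SGm and 883 in YSGm, with 3 of 9 markers at 0 in SGm. Astroglia-like cells numbered 190 and 135, a fold of 0.759 (0.604 to 0.951). They fell in cluster 18 (118 and 114 cells), whose markers barely passed the naming limit, and cluster 19 (72 and 21). Oligodendrocyte-like cells numbered 51 and 25, a fold of 0.524 (0.311 to 0.861), and their precursors 28 and 20. Fibroblast-like cells numbered 15 and 0, which allows a YSGm share of up to 0.0381%. Another 331 SGm and 466 YSGm cells stayed unnamed. Red blood cell markers were at 44.7 CPM in SGm and 0.509 in YSGm, with 98.9% of the SGm Hbb-bs UMIs in 10 cells.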

How the data were processed

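Per the labels' protocols, tissue was captured with the 10x Genomics 3' kit V3 and sequenced on DNBseq instruments. The matrices name Cell Ranger 5.0.1, per the file headers, and mm10 is the build in the submitters' processing notes. The deposited values are counts: UMIs per gene and barcode over 32286 features, not normalized. Gene positions came from GENCODE M21.

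From these counts, UMIs were summed over the kept cells of each library, scaled to CPM and compared as log2 ratios with a pseudocount of 1 CPM, without a test. Folds are count ratios with exact conditional binomial 95% intervals, and shares carry Clopper-Pearson intervals. Where a count was 0, the limit given is instead that of 3 counts. Neither covers UMIs concentrated in a few cells, nor differences between animals. Cells of the 4 libraries were clustered jointly and without batch correction: 2000 variable genes, 30 components, 15 neighbours, leiden at resolution 1.0 (scanpy 1.11.5, leidenalg 0.10.2), which gave 27 clusters of 5 or more cells. Names rest on marker lists and mean X-like. Scrublet called 0% of cells in each library, so it did not work here and doublets were kept. The alternative without doublets left out cells by a cutoff set at the top 6% of Scrublet scores in each library. This took out 408 SGm and 418 YSGm cells, and the number follows from the cutoff and not from called doublets. The ratio and interval code was tested on simulated data.

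The members, the lists and the markers were chosen with earlier results of these data known. Named genes are the 15 highest and 15 lowest ratios at 20 CPM or more, the 3 highest and lowest of each list, the Hippo and Hedgehog lists, genes at 20 CPM or more in 1 male library and under 1 CPM in the other, and cell type markers. Other genes, such as Ccn2, Ccl5, Hoxb4, Aim2 and Neurod1, were picked after their values were seen. A few genes that the rule takes in are not reported here. Of 978 list entries, 971 matched a gene symbol. Alternatives covered the cell filter, doublets, shared barcodes, cell weighting, thinning to 2000 UMIs, scaling, pseudocount, minimum level and clustering.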

Additional observations from a re-analysis of the deposited data

Results flagged for a closer look

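In 9 measured genes the YSG over SG difference of the male libraries was opposite to that of the female libraries and past 2-fold in both sexes. With 1 library in each group the difference between the sexes was not tested. Mid1 had a log2 ratio of 2.47 in males and −2.99 in females, and Hist1h2ap 2.44 and −1.98. Hoxb2 had −3.80 and 1.12, and Hoxb3 −3.31 and 1.71. For Hoxb2 the male value rests on 945 UMIs in SG against 0 in YSG. Among the other 5, Igfbp2 (−2.15 in males, 1.27 in females), Crabp1 (−1.22 and 1.34) and Rcan2 (−1.66 and 1.17) were opposite in the same way, and the remaining genes are predicted genes. Of 1043 Igfbp2 UMIs in SGm, 532 lay in astroglia-like cells and 99 in endothelial-like or fibroblast-like cells. Within male granule lineage cells Igfbp2 was at 5.69 and 1.07 CPM (−1.69). Igfbp2, Crabp1 and Rcan2 lead the female YSG cluster 12 together with Hoxb2, Hoxb3 and Meis2. That cluster held 767 YSG female cells, 3 YSG male cells and 4 SG male cells.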

How the results depend on the processing

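No paired analysis was possible because each group is 1 library with no replicate number. The Yap1 log2 ratio was −3.82 with a pseudocount of 0.1 CPM and −0.74 with 5 CPM, which follows from its low level. The count of higher genes was 72 with a pseudocount of 5 CPM and 87 with a minimum of 20 CPM, and that of lower genes 128 and 120. In the 6 clusters with at least 80 cells of each male library, an alternative chosen after seeing the data like that of leaving out stress clusters, the count of lower genes was 145. With the stricter cell filter the astroglia-like fold was 0.445. No ratio of Yap1 or of the 30 genes with the highest and lowest ratios changed direction. The pseudocount and minimum-level alternatives could not have turned a gene's ratio, so only the other alternatives bear on this. The male leukocyte-like and astroglia-like share folds also kept their direction. The male granule lineage fold changed direction without doublets and with the stricter cell filter. When the male libraries were clustered alone, no dendritic-like or neutrophil-like cluster was named. The microglia-like name there covered all 16 SGm and 30 YSGm leukocyte-like cells, so its fold of 2.0 is that of leukocyte-like cells together. Of 388 list medians under alternatives 15 changed sign, in 9 of 30 lists. In the 6 clusters the Hedgehog median was 0.07, mitosis 0.19, immediate early and stress −0.19, axon guidance −0.14 and chemokines −0.22. With a minimum of 20 CPM the hindbrain median was 0.17, and without doublets the chemokine median was −0.14. The cause was not tested. Over the other alternatives the Yap1 ratio stayed within −2.01 to −1.78, and the leukocyte-like fold ran from 1.95 to 2.40 over its 5. The median-of-ratios scaling factor was −0.01 on the log2 scale, and dividing YSGm levels by that factor moved log2 ratios slightly up. In all, 45 list medians moved by more than their interval, as did 88 of 390 ratios of named genes. The 390 include the minimum-level alternatives, which leave a gene's ratio as it was. Levels under about 5 CPM rest on few UMIs, and 10 cells hold nearly all Hbb-bs and Ttr UMIs of SGm.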

Other observations

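Some signals in the male libraries came from a handful of cells. Ttr, the transthyretin gene of choroid plexus, had 560 UMIs in SGm and 3 in YSGm, a ratio of 155 (52.9 to 756), and 97.3% of the SGm UMIs lay in 10 cells. In female libraries it was at 0.0691 and 0.0686 CPM. Clic6, another choroid plexus gene, behaved differently, with 1086 and 220 UMIs, 14.8 and 3.61 CPM, and a ratio of −1.76 within granule lineage cells against −1.78 over all cells.

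Gm47283, annotated on chromosome Y, was at 119 CPM in SGm, 394 in YSGm, 267 in SG females and 84.9 in YSG females, an order opposite in the sexes like that of Mid1. Rps2 was the single ribosomal protein gene of 36 with a ratio near 1, at 953 and 1901 CPM in males, where the other 35 lay between −0.27 and 0.31. Meg3, an imprinted long noncoding RNA, was at 153 and 70.5 CPM in males and at 155 and 156 CPM in females.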
